A study of Caenorhabditis elegans with 12 samples.

Results

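The flp genes of Caenorhabditis elegans encode FMRFamide-like neuropeptides, and they were taken here as all genes in the count tables whose symbol in the WBcel235 annotation begins with flp-. There were 31 such genes among 46739 listed, and 30 of them passed the filter on low counts that left 14390 genes for testing. The remaining gene, flp-23, had no read in any library, which allows a level of up to 0.0261 CPM over all 12 libraries (3 counts of 115051143). CPM are counts scaled to a common library size. Whole worms grown at 20 °C to the late L4 larval stage were compared in 4 genotypes with 3 libraries each. These were wild-type (strain N2), eat-2(ad465) (strain DA465), acs-20(tm3232) (strain DCL29) and the double mutant carrying both alleles (strain DCL33). Each genotype is thus a single strain, and both mutations were present in all tissues. The product of eat-2 is a subunit of an acetylcholine receptor in the pharynx, and its loss slows feeding, which is why the mutant serves in work on restricted diets. The product of acs-20 activates and takes up fatty acids and is required for the barrier of the cuticle.

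FLP peptides are made as longer precursors, which proprotein convertases cut and other enzymes trim and amidate. They are stored in dense core vesicles, released mostly by neurons, and act on G protein-coupled receptors. In the worm they tune feeding, locomotion, egg laying, sleep and responses to food and oxygen. In whole worms a lower level of a neuronal transcript can come from fewer expressing cells or from less RNA per cell, and these cannot be told apart.

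The libraries held 7116623 to 12016769 counts in genes, of which 1756 to 4104 fell in flp genes, between 0.0243 and 0.0485% of the total. The eat-2 gene itself was read too rarely to check the labels (0 to 3 counts per library), and acs-20 was read in every library at 77.2 to 134 CPM. Counts over the whole gene do not resolve which part of acs-20 an allele removes, so this does not check the labels either. Of the 31 genes 13 lie on chromosome X, 5 each on III and IV, 3 each on II and V and 2 on I. The merged exons of the genes span 422 to 1013 bases. Exons of other genes overlap 6 of them, by at most 2.94% of their exon bases (flp-8), so reads from neighbours can bear on few of these counts.

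Levels per length differed 16.3-fold between the highest and the lowest tested member. flp-28 stood first at 71.0 CPM per kb of exon as the mean of all libraries, followed by flp-15 at 51.0, flp-10 at 39.9, flp-24 at 39.1 and flp-14 at 38.8 CPM per kb. The order of the last 3 rests on gaps smaller than the spread between libraries. flp-17, which is made in the carbon dioxide-sensing BAG neurons, was lowest of the tested genes at 4.36 CPM per kb, and flp-34 and flp-32 lay just above it at 5.39 and 5.41. The median tested member stood at 11.5 CPM per kb. Without division by length, the 5 genes with the highest CPM (flp-28, flp-10, flp-15, flp-14 and flp-16) held 37.8% of the summed flp level.

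The mean summed level of the flp genes was highest in the double mutant and lowest in acs-20. The sum was 286, 289 and 346 CPM in the wild-type libraries, 453, 295 and 383 CPM in eat-2, 283, 245 and 246 CPM in acs-20, and 443, 384 and 333 CPM in the double mutant. The acs-20 libraries all lay below every double mutant library, whereas eat-2 replicate 2 lay among the wild-type libraries. Group means were 307 ± 33.5, 377 ± 79.4, 258 ± 21.7 and 387 ± 54.6 CPM (SD, n = 3) in the same order. The libraries of a genotype differed in most members at once. In eat-2, replicate 1 was the highest of its group in 25 of 30 genes and replicate 2 the lowest in 24, and in the double mutant replicate 3 was the lowest in 22 and the highest in 0.

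**Figure D1:**
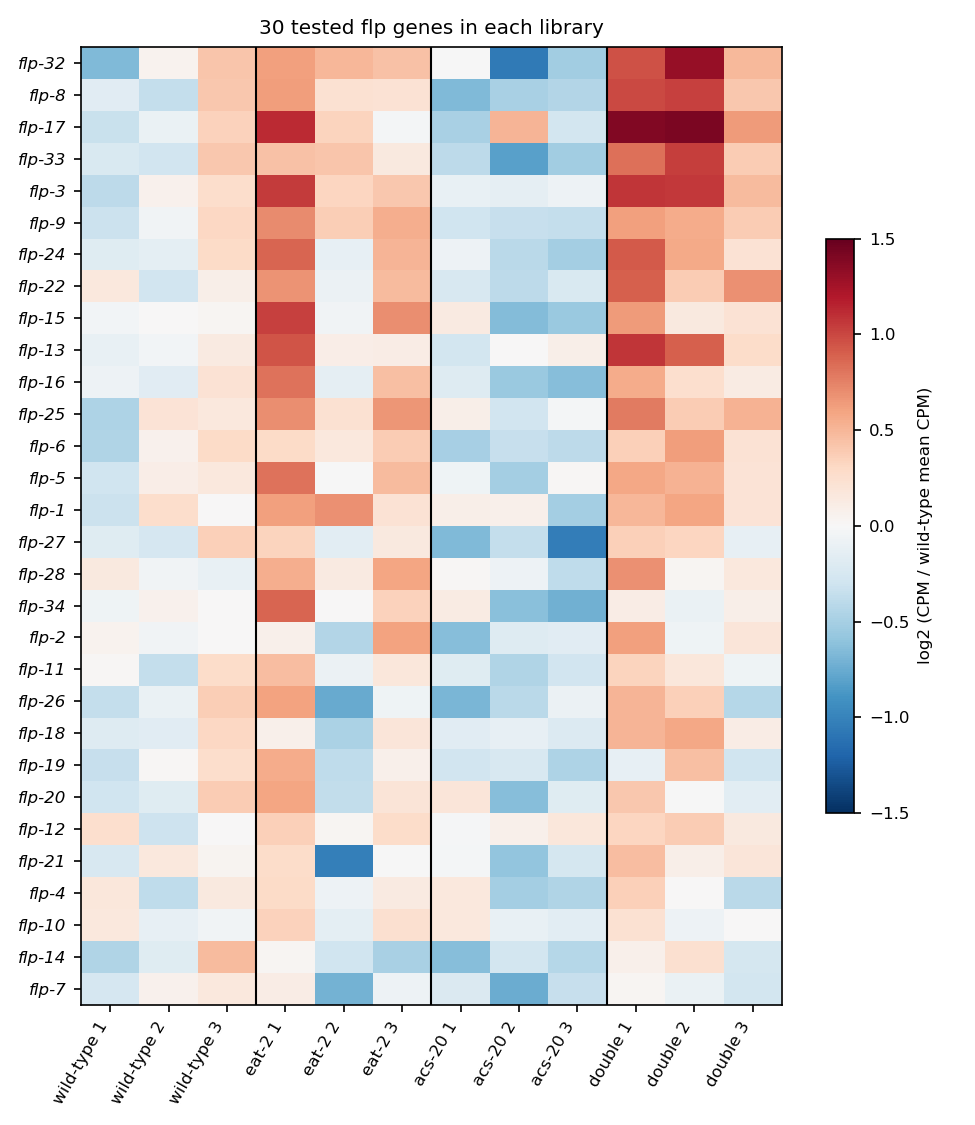
Each cell gives the log2 ratio of a library's CPM to the wild-type mean CPM of that gene, for the 30 tested flp genes (rows, ordered by the average effect of eat-2) and the 12 libraries (columns, 3 per genotype; double is the eat-2 and acs-20 double mutant). Values run from -1.06 to 1.41, the double mutant and eat-2 columns are mostly red, and eat-2 replicate 2 is paler or bluer than its companions.

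The double mutant was compared with acs-20 to measure the effect of eat-2 where acs-20 was mutated too. Here 11 of the 30 flp genes rose and none fell (edgeR quasi-likelihood test, threshold of 0.05 on p-values adjusted by Benjamini-Hochberg across the 14390 genes). Called genes made up 12.9% of all 14390, or 7.64% counting increases alone, against 36.7% of the flp genes. All 30 log2 fold changes were positive (29 when scaled to pan-neuronal genes), with a median of 0.60 beside 0.02 for all tested genes. In 22 of the 30 every double mutant library lay above every acs-20 library, against 18.3% of all tested genes. The 11 genes were flp-3, flp-6, flp-8, flp-9, flp-16, flp-17, flp-22, flp-24, flp-27, flp-32 and flp-33. Leaving out acs-20 replicate 3 gave 4 calls, leaving out replicate 2 of the double mutant also gave 4, and leaving out its replicate 1 gave 6. Calls among all tested genes went from 1863 to 919, 999 and 1008 in the same fits.

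Where acs-20 was wild-type, the effect of eat-2 was called in 1 flp gene, flp-9, which rose by a log2 of 0.54 against wild-type (SE 0.15, adjusted p = 0.0443). Among all tested genes 7.67% were called here, 4.12% higher and 3.54% lower, against 3.33% of the flp genes. The log2 fold changes were positive in 26 of 30 genes (25 when scaled to pan-neuronal genes), with a median of 0.35 beside 0.04 for all tested genes. An unadjusted p under 0.05 was reached by 7 of the 30 flp genes and by 3088 of all 14390 tested genes. Leaving out eat-2 replicate 1 gave a flp median of 0.19, and 1 flp gene then had an unadjusted p under 0.05. Negative values were measured for flp-7, flp-14, flp-18 and flp-21, at -0.18, -0.24, -0.04 and -0.16, none of them called. The groups did not overlap in 4 of the 30 genes, all higher in eat-2 (flp-3, flp-9, flp-25 and flp-32), against 13.1% of all tested genes. The flp-9 call was lost in 9 of 12 fits that left out a library, with adjusted p up to 0.188, and also with RLE factors.

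The 2 eat-2 effects share no library and could be set side by side. They had the same sign in 26 of 30 flp genes and in 69.0% of all tested genes. Across the 30 genes Pearson's r between them was 0.48 and Spearman's rho 0.51, and across all tested genes 0.60 and 0.51. Genes within a library share its depth and are not independent, so no p is given.

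**Figure D2:**
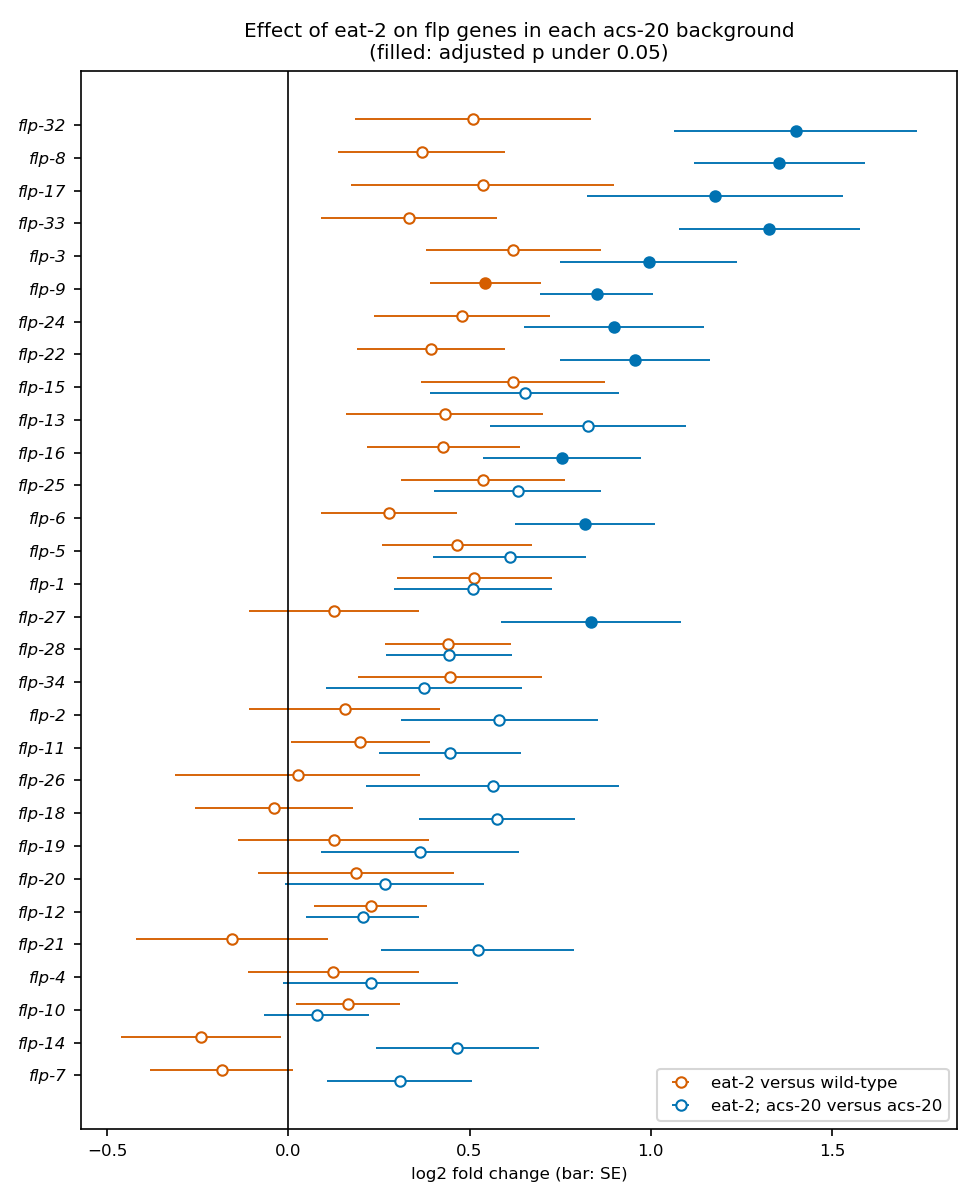
Log2 fold change (horizontal axis, bars are standard errors) of each tested flp gene for eat-2 against wild-type (orange) and for the double mutant against acs-20 (blue). Filled points passed an adjusted p of 0.05: 1 orange and 11 blue, and all 30 blue points lie right of 0.

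Whether the effects of eat-2 differ between the backgrounds was tested by the interaction, the effect in acs-20 mutants minus that with acs-20 intact. No flp gene was called, and called genes made up 0.188% of all tested genes, 0.139% higher and 0.0486% lower. An unadjusted p under 0.05 was reached by 3 flp genes in edgeR and 3 in DESeq2, which also called none, while 1054 of 14390 genes reached it in edgeR. The estimate was positive in 26 of the 30 genes (24 when scaled to pan-neuronal genes) with a median of 0.38 beside -0.01 for all tested genes. This median was 0.22 without eat-2 replicate 2 (22 positive), 0.24 without wild-type replicate 3 (25 positive) and 0.25 when replicate 1 of the double mutant was left out (21 positive). It was largest in flp-33 (0.99, SE 0.35, adjusted p = 0.538), flp-8 (0.99, SE 0.33, adjusted p = 0.493) and flp-32 (0.89, SE 0.47, adjusted p = 0.727). No flp gene was thus shown to respond differently in the backgrounds, and estimates with errors of this size do not show that the effects were equal.

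The average of the 2 eat-2 effects used all 12 libraries and gave the most calls. It was past the threshold in 16 of 30 flp genes, all higher in the eat-2 carriers, or 53.3% against 20.3% of all tested genes in either direction, 11.2% for increases and 9.18% for decreases. All 30 estimates were positive with TMM or RLE scaling and 29 when libraries were scaled to the pan-neuronal genes described further on. Their median was 0.50 beside 0.03 for all tested genes. The number of flp genes called fell to 10 when wild-type replicate 1 was left out and to 9 when replicate 1 of the double mutant was. Calls among all tested genes went from 2927 to 2276 and 2488 in the same fits. The highest of the 12 libraries carried eat-2 in 28 of the 30 genes, and in 4 (flp-3, flp-9, flp-25 and flp-32) all 6 eat-2 libraries lay above all 6 others. The shares of all tested genes with these patterns were not computed, so these counts do not set the flp genes apart.

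flp-9 (WBGene00001452, chromosome IV) had the smallest p for the average effect. Its level was 12.03, 14.6 and 18.7 CPM in the wild-type libraries, 24.6, 19.4 and 22.04 CPM in eat-2, 12.3, 11.9 and 11.8 CPM in acs-20, and 23.0, 22.2 and 19.7 CPM in the double mutant. The eat-2 carriers lay above the other libraries without overlap, and the acs-20 libraries were nearly equal to each other. The log2 change was 0.85 in acs-20 mutants (SE 0.16, adjusted p = 0.00362) and 0.70 on average (SE 0.11, adjusted p = 0.000565).

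flp-3 (WBGene00001446, chromosome X) stood at 4.25, 5.84 and 6.72 CPM in wild-type, 11.6, 6.98 and 7.44 CPM in eat-2, 5.17, 5.12 and 5.33 CPM in acs-20, and 11.8, 11.7 and 7.77 CPM in the double mutant. Again no eat-2 carrier fell within the range of the others, though the carriers differed widely among themselves. It rose by 0.99 in acs-20 mutants (SE 0.24, adjusted p = 0.0173) and by 0.81 on average (SE 0.17, adjusted p = 0.00436). In eat-2 against wild-type its log2 fold change was 0.62 with an adjusted p of 0.146.

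flp-8 (WBGene00001451, chromosome X) was at 6.12, 5.37 and 9.13 CPM in wild-type, 10.6, 8.02 and 8.01 CPM in eat-2, 4.33, 4.90 and 5.05 CPM in acs-20, and 13.6, 13.9 and 9.08 CPM in the double mutant. Its wild-type and eat-2 libraries overlapped, while the double mutant exceeded acs-20 throughout. The rise in acs-20 mutants was 1.36 (SE 0.24, adjusted p = 0.00263) and the average effect 0.86 (SE 0.16, adjusted p = 0.00227).

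flp-33 (WBGene00011586, chromosome I) followed the same order, with 3.42, 3.29 and 5.31 CPM in wild-type, 5.43, 5.35 and 4.43 CPM in eat-2, 3.06, 2.29 and 2.80 CPM in acs-20, and 7.12, 8.23 and 5.23 CPM in the double mutant. All 3 acs-20 libraries were below all wild-type libraries and all double mutant libraries. The increase in acs-20 mutants was 1.33 (SE 0.25, adjusted p = 0.0042) and the average 0.83 (SE 0.17, adjusted p = 0.0041). These levels rest on 20 to 88 reads per library.

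flp-32 (WBGene00010982, chromosome X) was among the least abundant members, at 8 to 48 reads per library. It was measured at 1.14, 1.88 and 2.41 CPM in wild-type, 2.77, 2.56 and 2.45 CPM in eat-2, 1.80, 0.871 and 1.26 CPM in acs-20, and 3.50, 4.49 and 2.53 CPM in the double mutant. The 6 eat-2 carriers lay above the 6 others, by a narrow margin. It had the highest fold change of the family in acs-20 mutants, 1.40 (SE 0.34, adjusted p = 0.0158), and on average, 0.95 (SE 0.23, adjusted p = 0.0105).

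**Figure D3:**
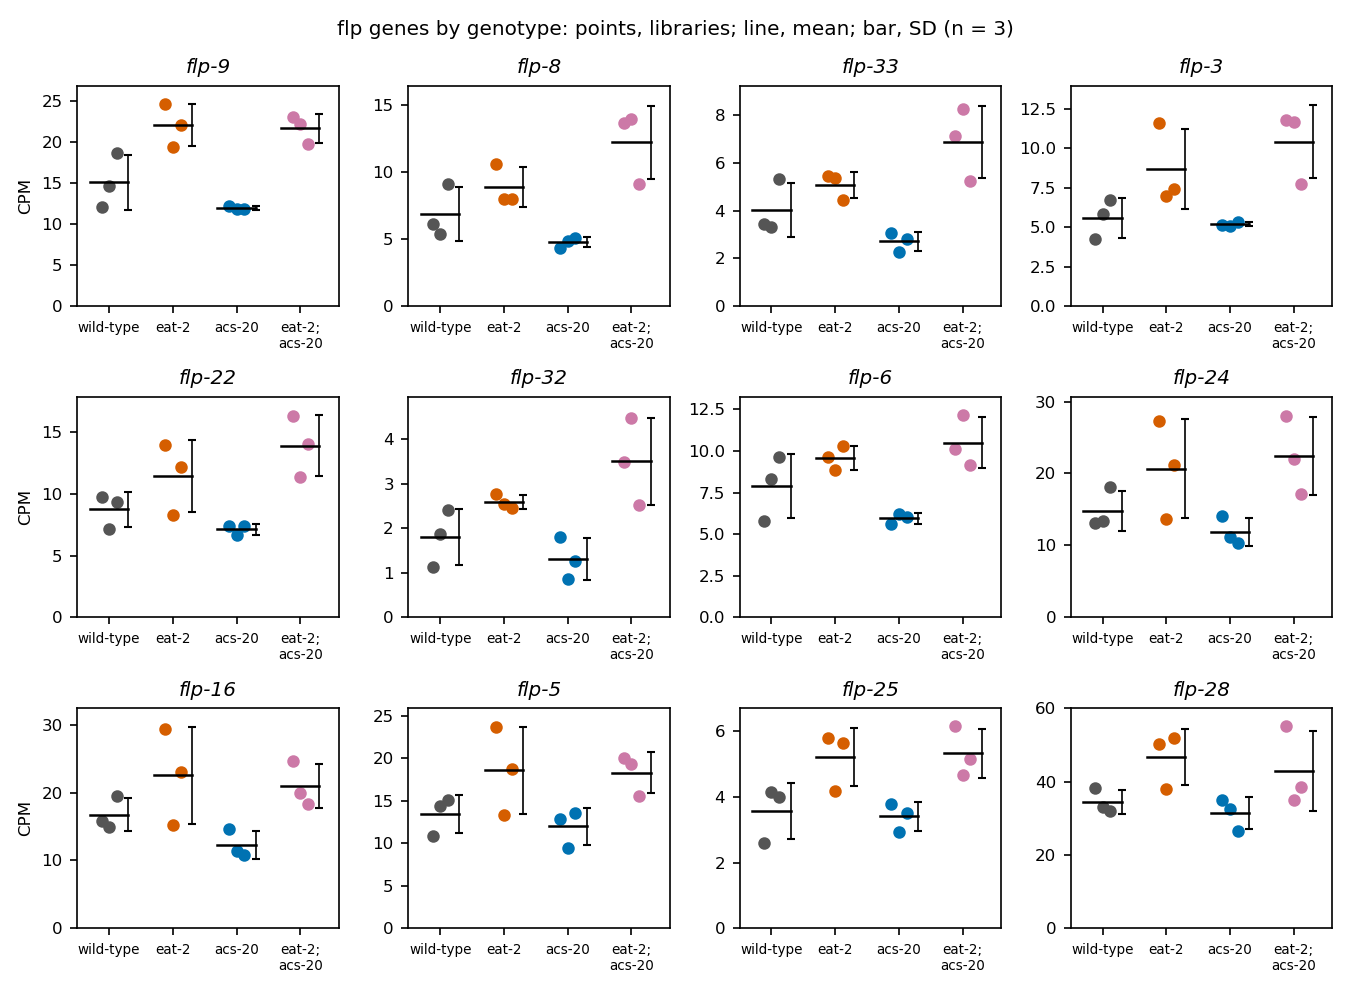
CPM (vertical axes, from 0) of the 12 flp genes with the smallest p for the average eat-2 effect or the interaction among the 17 called in any comparison. Points are libraries, lines means and bars SD (n = 3), for wild-type, eat-2, acs-20 and double mutant worms. In flp-9, flp-3, flp-32 and flp-25 all eat-2 carriers lie above all other libraries.

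Among genes for peptides of sleep, flp-24 and flp-13 act from the ALA neuron in stress-induced sleep, and flp-11 from the sleep-active RIS neuron. flp-24 (WBGene00016028, chromosome III) was at 13.1, 13.4 and 18.1 CPM in wild-type, 27.3, 13.6 and 21.2 CPM in eat-2, 14.05, 11.2 and 10.4 CPM in acs-20, and 28.0, 21.99 and 17.2 CPM in the double mutant. The eat-2 libraries spread widely, and replicate 2 stood at the wild-type level. Its average log2 change was 0.69 (SE 0.17, adjusted p = 0.0131). flp-13 (WBGene00001456, chromosome IV) went from 3.45 ± 0.434 CPM in acs-20 to 6.15 ± 1.63 CPM in the double mutant (adjusted p = 0.0605) and had an average effect of 0.63 (SE 0.19, adjusted p = 0.0326). flp-11 stood at 10.3 ± 2.22, 11.8 ± 2.24, 8.34 ± 0.789 and 11.4 ± 1.55 CPM in wild-type, eat-2, acs-20 and double mutant worms, and its average effect of 0.32 was not past the threshold (adjusted p = 0.119).

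For egg laying, flp-10 and flp-17 encode ligands of the inhibitory receptor EGL-6. flp-17 (WBGene00001460, chromosome IV) was at 2.19 ± 0.847 CPM in acs-20 and 5.04 ± 1.39 CPM in the double mutant, a rise of 1.18 (SE 0.35, adjusted p = 0.0427). Against wild-type (2.21 ± 0.537 CPM) the double mutant was higher by 1.17 (SE 0.34, adjusted p = 0.0312). flp-10, in contrast, was at 26.2 ± 2.75, 29.4 ± 5.04, 25.7 ± 3.08 and 27.3 ± 3.12 CPM in wild-type, eat-2, acs-20 and double mutant worms, and its average effect was 0.12 (adjusted p = 0.456). With 168 to 329 reads per library it was among the more deeply read members.

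The NPR-1 receptor, which sets social feeding and oxygen responses, is activated by peptides of flp-18 and flp-21. Neither gene was called for any comparison. flp-18 was at 5.83 ± 1.21, 5.64 ± 1.28, 5.19 ± 0.143 and 7.77 ± 1.29 CPM in wild-type, eat-2, acs-20 and double mutant worms (adjusted p = 0.0998 for the double mutant against acs-20). flp-21 ran from 3.95 CPM in eat-2 replicate 2 to 11.1 CPM in double mutant replicate 1. flp-7, whose peptide from ASI neurons acts on fat metabolism in the intestine, was at 18.6 ± 2.6, 16.3 ± 4.45, 13.9 ± 2.5 and 17.2 ± 1.79 CPM, with the smallest average effect of the family (0.06, adjusted p = 0.805).

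flp-1, needed for normal sinusoidal locomotion, rose on average by 0.51 (SE 0.15, adjusted p = 0.0293), from 5.98 ± 1.19 CPM in wild-type to 8.60 ± 1.43 CPM in eat-2 and from 5.62 ± 1.22 CPM in acs-20 to 8.10 ± 1.10 CPM in the double mutant. flp-6 (WBGene00001449, chromosome V), used by the thermosensory AFD neurons, was at 5.81, 8.28 and 9.63 CPM in wild-type, 9.65, 8.84 and 10.3 CPM in eat-2, 5.60, 6.20 and 6.03 CPM in acs-20, and 10.1, 12.2 and 9.16 CPM in the double mutant. The acs-20 libraries were close together and below every double mutant library, and the rise there was 0.82 (SE 0.19, adjusted p = 0.0148). flp-2, which promotes arousal, flp-20, made in touch neurons, and flp-34, which acts in learning, were not called, with average effects of 0.37, 0.23 and 0.41 and adjusted p of 0.195, 0.460 and 0.141.

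flp-22 (WBGene00009562, chromosome I) was at 9.75, 7.15 and 9.33 CPM in wild-type, 13.99, 8.26 and 12.2 CPM in eat-2, 7.39, 6.64 and 7.43 CPM in acs-20, and 16.3, 11.4 and 14.1 CPM in the double mutant. The double mutant lay above both wild-type and acs-20 without overlap. It rose by 0.96 in acs-20 mutants (SE 0.21, adjusted p = 0.00957) and by 0.67 on average (SE 0.15, adjusted p = 0.00488). flp-16 (WBGene00001459, chromosome II) was at 15.9, 14.9 and 19.6 CPM in wild-type, 29.4, 15.2 and 23.0 CPM in eat-2, 14.7, 11.4 and 10.8 CPM in acs-20, and 24.6, 19.9 and 18.3 CPM in the double mutant. Its eat-2 and wild-type libraries overlapped, and its average effect was 0.59 (SE 0.15, adjusted p = 0.0135).

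flp-28 (WBGene00044686, chromosome X), the most abundant member, was at 38.2, 33.2 and 31.9 CPM in wild-type, 50.3, 37.9 and 51.9 CPM in eat-2, 34.96, 32.7 and 26.5 CPM in acs-20, and 55.3, 35.1 and 38.4 CPM in the double mutant. Its 2 eat-2 effects were nearly equal, 0.44 in each background, and neither was called alone (adjusted p = 0.149 and 0.117), while the average was (SE 0.12, adjusted p = 0.0210). flp-5 (WBGene00001448, chromosome X) was at 10.9, 14.4 and 15.04 CPM in wild-type, 23.6, 13.4 and 18.7 CPM in eat-2, 12.9, 9.47 and 13.6 CPM in acs-20, and 20.0, 19.4 and 15.5 CPM in the double mutant. Only the average effect of flp-5 was called, at 0.54 (SE 0.15, adjusted p = 0.0195).

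flp-25 (WBGene00010575, chromosome III) was at 2.59, 4.14 and 4.01 CPM in wild-type, 5.79, 4.19 and 5.65 CPM in eat-2, 3.80, 2.94 and 3.51 CPM in acs-20, and 6.15, 4.68 and 5.15 CPM in the double mutant, and its average effect was 0.59 (SE 0.16, adjusted p = 0.0202). The eat-2 carriers lay just above the others, the nearest libraries being 4.19 and 4.14 CPM. flp-15, whose peptides activate the receptor NPR-3, had an average effect of 0.64 (adjusted p = 0.0270) and flp-27 a rise of 0.83 in acs-20 mutants (adjusted p = 0.0412). The average effect of flp-27 was not past the threshold (0.48, adjusted p = 0.0629). flp-4, flp-12, flp-14, flp-19 and flp-26 were called in no comparison, with average effects between 0.11 (flp-14) and 0.29 (flp-26).

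acs-20 alone changed no flp gene past the threshold. Against wild-type 0 of 30 were called by edgeR, with 2 at an unadjusted p under 0.05, and 0 by DESeq2, with 3 at that p, while 2.21% of all tested genes were called. In edgeR 2009 of all 14390 tested genes were under that p. The flp estimates were still negative in 29 of the 30 genes, with a median of -0.30 beside 0.01 for all tested genes, and acs-20 had the lowest group mean in 29. Leaving out wild-type replicate 3 gave 23 negative estimates and a median of -0.16, and the germline covariate gave 23 and -0.11. flp-27 had the lowest value, -0.64 (SE 0.25, adjusted p = 0.259). In 5 genes all acs-20 libraries lay below all wild-type libraries and in 0 above, against 10.8% of all tested genes that were lower without overlap. Scaled to the pan-neuronal genes, 23 of 30 estimates were negative, with a median of -0.19 beside 0.12 for all tested genes. Lists described further on also leaned lower in acs-20 against wild-type with TMM factors. Estimates were negative in 11 of 16 pan-neuronal genes (median -0.18) and in 8 of 9 neuropeptide processing genes (median -0.18). The same held for 9 of 10 dense core vesicle genes (median -0.16), while FLP receptor genes were split, 6 negative and 5 positive. The pan-neuronal estimates ran from -0.41 to 0.07, so the flp median of -0.30 lay within their range. The 5 pharyngeal muscle genes were low in the same libraries: their summed level was 195 to 221 CPM in wild-type, 132 to 172 CPM in eat-2, 82.1 to 122 CPM in acs-20 and 181 to 191 CPM in the double mutant. In acs-20 against wild-type 3 of the 5 fell, against 1.22% of all tested genes. In the double mutant against acs-20 4 of the 5 rose (median 0.85), against 7.64% of all tested genes. For the interaction 3 of the 5 were called, all higher (list median 1.37), against 0.139% of all tested genes. The part of the pharyngeal muscle genes in the flp values was not tested. The acs-20 group is the reference of the double mutant comparison above, so the size of that effect and these low values share the same 3 libraries.

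In eat-2 mutants, loss of acs-20 was likewise called in 0 of 30 flp genes by edgeR and by DESeq2, with 0 at an unadjusted p under 0.05 in either tool and 2.11% of all tested genes called, 1.36% higher and 0.757% lower. In edgeR 1910 of all 14390 tested genes were under that p. The groups overlapped in all 30 flp genes, while 9.14% of all tested genes were higher and 7.61% lower without overlap. Positive and negative estimates were 18 and 12, with a median of 0.07, and the sign of this median rested on single libraries. It was -0.10 without eat-2 replicate 2 (12 positive and 18 negative) and -0.01 when replicate 1 of the double mutant was left out (13 and 17). It was 0.16 without eat-2 replicate 1 (24 and 6), 0.15 without replicate 3 of the double mutant (25 and 5) and 0.04 without its replicate 2 (19 and 11). The double mutant against wild-type had 6 flp genes higher and none lower (flp-3, flp-8, flp-9, flp-17, flp-22 and flp-33), or 20.0% of the family against 17.6% of all tested genes, 8.94% higher and 8.62% lower. In 9 genes the double mutant lay above wild-type without overlap, against 20.2% of all tested genes. Estimates were positive in 29 of 30 genes with TMM factors, 26 with RLE factors and 28 when scaled to pan-neuronal genes (median 0.33 beside 0.04). No flp gene was called when replicate 1 of either group was left out (median 0.21 for that of the double mutant), and 1 was called when replicate 2 of either was. Among all tested genes 2526 were called with every library. Without replicate 1 of wild-type and of the double mutant 1573 and 1676 were called, and without replicate 2 of each 2540 and 1602.

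**Figure D4:**
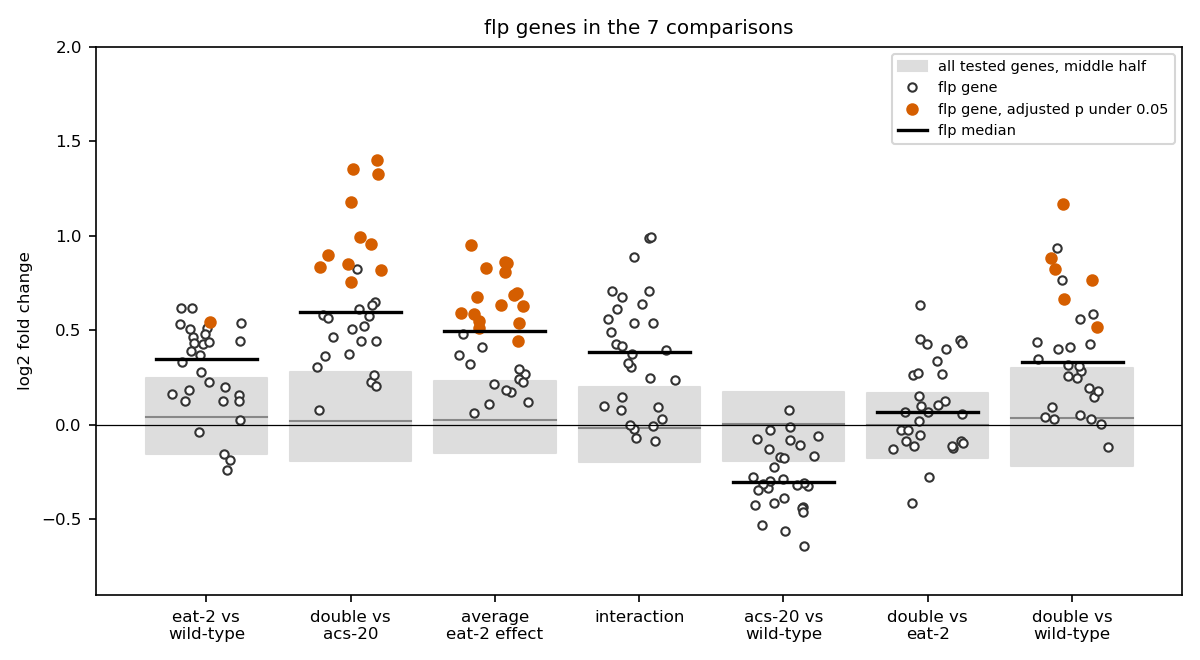
Log2 fold changes (vertical axis) of the 30 tested flp genes in the 7 comparisons, where the interaction is a difference of 2 log2 fold changes and double is the double mutant. Black lines are flp medians, orange points passed an adjusted p of 0.05, and grey boxes span the interquartile range of all tested genes. The flp median is 0.60 for the double mutant against acs-20 and -0.30 for acs-20 against wild-type.

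For the average effect, which was called and higher in 11.2% of all tested genes, 5 of 13 X-linked and 11 of 17 tested autosomal flp genes were called, with medians of 0.32 and 0.59. The difference between the classes was not tested.

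Genes used by all neurons were measured for comparison, and whether they are also expressed in other tissues was not assessed. Of these 16 genes, 3 rose on average with eat-2 and none fell, namely the syntaxin gene unc-64 (0.37), the active zone gene unc-10 (0.38) and the SNAP-25 gene ric-4 (0.36), and the median was 0.09. Estimates on this list ran from -0.10 to 0.48, and 18.8% of its genes were called, against 20.3% of all tested genes in either direction. Their summed level was 547 to 590 CPM in wild-type, 532 to 637 CPM in eat-2, 503 to 558 CPM in acs-20 and 540 to 600 CPM in the double mutant, and the ranges of all 4 groups overlapped. flp counts per pan-neuronal count were 0.537 ± 0.0443, 0.640 ± 0.0798, 0.488 ± 0.0176 and 0.673 ± 0.0605 (SD, n = 3) in wild-type, eat-2, acs-20 and double mutant worms. Every double mutant library exceeded every acs-20 library in this ratio, 0.618 to 0.738 against 0.472 to 0.507. With libraries scaled to these genes the average effect was called in 15 flp genes, all higher, and in 2929 of all tested genes.

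Markers of cholinergic neurons, which make acetylcholine, were also higher with eat-2. Their summed level was 25.7 to 28.1 CPM in wild-type, 33.0 to 48.4 CPM in eat-2, 21.3 to 23.7 CPM in acs-20 and 34.3 to 41.0 CPM in the double mutant, with no overlap between carriers and others. By the average effect 3 of 4 rose: the choline transporter gene cho-1 (0.74, adjusted p = 0.0139), the acetylcholinesterase gene ace-2 (0.66, adjusted p = 0.00126) and the vesicular transporter gene unc-17 (0.52, adjusted p = 0.0492). The choline acetyltransferase gene cha-1 was at 0.39 (adjusted p = 0.139). The called share was 75% of these 4 genes, against 20.3% of all tested genes in either direction and 11.2% for increases. What part the rise of these markers has in the flp values was not tested.

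Of 9 genes that process neuropeptides, 2 rose on average: egl-3, the main convertase of FLP precursors (0.32, SE 0.10, adjusted p = 0.0315), and pghm-1, an amidation enzyme (0.39, SE 0.12, adjusted p = 0.0395). egl-3 was at 118.6 ± 15.4, 131 ± 15.9, 92.7 ± 10.9 and 131 ± 18.3 CPM in wild-type, eat-2, acs-20 and double mutant worms. The carboxypeptidase gene egl-21 was at 0.21 (adjusted p = 0.164) and the median of the list was 0.15. The called share was 22.2%, near the 20.3% of all tested genes. Among 10 dense core vesicle genes the highest average effect was that of ida-1, a vesicle membrane protein gene (0.26, adjusted p = 0.0555), and the median was 0.06.

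FLP receptor genes were read at low levels, and 11 of 14 could be tested, npr-1, npr-11 and frpr-3 falling below the filter. frpr-4, whose receptor responds to FLP-13 peptides, was at 0.933, 1.41 and 1.70 CPM in wild-type, 2.53, 2.79 and 3.30 CPM in eat-2, 1.58, 0.871 and 1.54 CPM in acs-20, and 1.93, 1.68 and 1.72 CPM in the double mutant. It rose in eat-2 against wild-type (1.09, SE 0.28, adjusted p = 0.0318) and on average (0.75, SE 0.21, adjusted p = 0.0209). npr-22, whose receptor responds to FLP-7 peptides, was higher in the double mutant than in acs-20, at 1.61 ± 0.0702 against 0.577 ± 0.260 CPM (1.45, SE 0.42, adjusted p = 0.0390). No other receptor gene was called for an eat-2 effect. The called share was thus 1 of 11, or 9.09%, in each of these comparisons. Among all tested genes it was 7.67% in eat-2 against wild-type, 12.9% in the double mutant against acs-20 and 20.3% for the average effect. The receptor share was thus above the general share in eat-2 against wild-type, on 1 gene. It was below the general share in the double mutant against acs-20 and for the average effect.

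Markers of stage and of other tissues moved with eat-2 as well. The summed level of 6 adult cuticle genes, which come on at the end of the L4 stage, was 5990 to 7421 CPM in wild-type, 3323 to 5446 CPM in eat-2, 5775 to 6487 CPM in acs-20 and 2263 to 3823 CPM in the double mutant. By the average effect 3 of the 6 genes fell, or 50% against 9.18% of all tested genes called lower. In eat-2 against wild-type 0 of the 6 were called, though all 6 estimates were negative with an unadjusted p under 0.05. Carriers and others did not overlap in the summed level, and no gene of the list was at 0 in all libraries. With this sum as a covariate, tried after the data had been seen, no flp gene was called by edgeR for any comparison (4 had an unadjusted p under 0.05 for the average effect, and DESeq2 was not run with it), the count of all genes called for the average effect went from 2927 to 170, and the flp median was 0.25. Stage and the eat-2 genotype cannot be told apart here. A list of 7 body wall muscle genes was also separate, at 5967 to 7198 CPM in carriers and 7563 to 9178 CPM in the others. By the average effect 6 of the 7 fell, or 85.7% against 9.18% of all tested genes. Of 6 epidermis genes 2 rose and 2 fell, a called share of 66.7% against 20.3% of all tested genes. Of 6 intestine genes 1 fell, and no germline, sperm or pharyngeal muscle gene was called for that effect. The sum of 6 germline genes overlapped between all genotypes (583 to 1292 CPM), and with it as a covariate 18 flp genes were called for the average effect. In that fit the count of all genes called also went up, from 2927 to 3812.

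**Figure D5:**
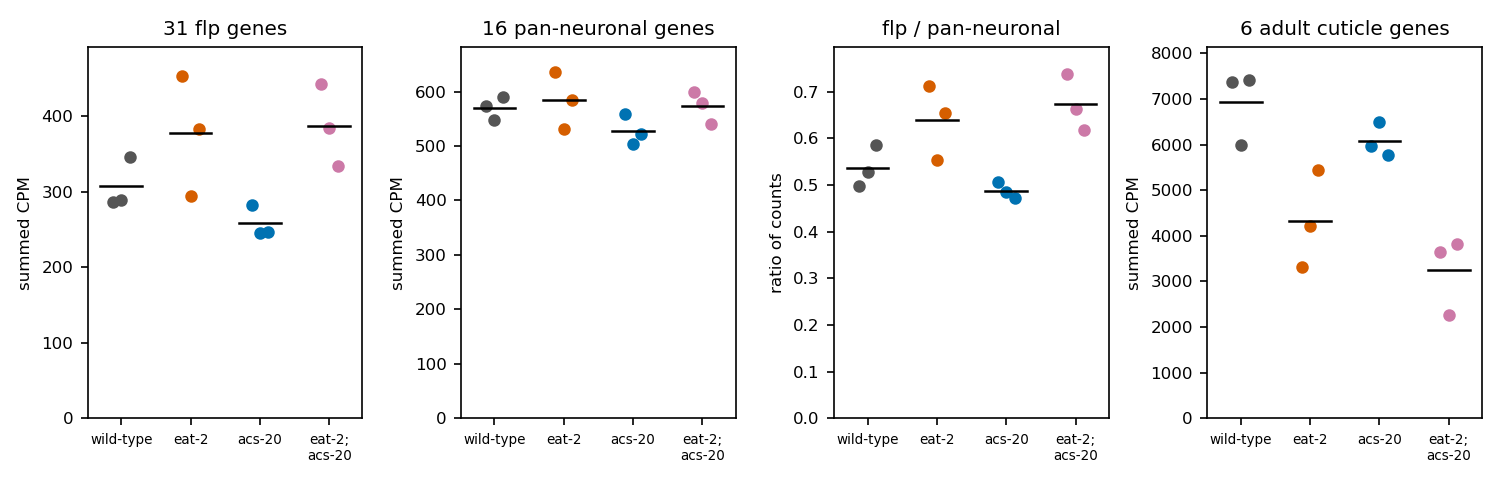
Summed CPM of the 31 flp genes, of 16 pan-neuronal genes and of 6 adult cuticle genes, and the ratio of flp to pan-neuronal counts, by genotype. Points are libraries and lines the means of 3. The flp to pan-neuronal ratio is lowest in acs-20 (0.488) and highest in the double mutant (0.673), and the adult cuticle sum separates eat-2 carriers from the others.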

How the data were processed

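The authors deposited 1 table of raw counts per library, without normalization. FastQC 0.11.5, TopHat2, HTSeq and DESeq2 are named in the submitters' processing notes without their roles, and HTSeq summary lines close each table. These lines stayed out of library sizes, and reads assigned to no gene made up 44.1 to 46.5% of all reads in the tables. The build, annotation release and strand setting were not given in the sources used here, so no coordinates are printed. Symbols, chromosomes and exon lengths came from Ensembl release 115 (WBcel235), which named 43720 of 46739 genes.

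Counts were tested in R 4.3.3 with edgeR 4.0.16. Genes were filtered with filterByExpr (minimum count 10, minimum total 15), scaled with TMM factors, and fitted with 4 group means over 12 libraries (8 residual degrees of freedom) by robust quasi-likelihood. Standard errors are the log2 fold change divided by the root of its F statistic. The interaction and the average effect were contrasts of the same fit, and p-values were adjusted over all 14390 genes. CPM used the TMM factors. The steps were tested on simulated data. Counts were also computed with DESeq2 1.42.0, with RLE factors, without the filter, with replicate numbers as a block, on compared samples alone (pairwise comparisons), scaled to the pan-neuronal list, and without each library. Germline and adult cuticle sums as covariates were added after the data had been seen.

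The members, the 16 gene lists and the tests were chosen with earlier results of these data known. Full values are given for the 12 called flp genes with the smallest p for the average effect or the interaction, out of 17, and lists are described by their called members. The labels do not say whether replicates were separate cultures, so p-values measure the spread between these samples only. Replicate libraries differed by more than sampling noise (chi-square per degree of freedom 3.74 to 47.5). Counting limits cover counting error only.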

Additional observations from a re-analysis of the deposited data

How the results depend on the processing

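The number of flp genes called was compared with 1 for eat-2 against wild-type, 11 for the double mutant against acs-20, 16 for the average effect, 6 for the double mutant against wild-type and 0 for the other comparisons. For eat-2 against wild-type it was 0 with RLE factors, 0 with the compared samples alone, 2 with the germline covariate and 0 with the adult cuticle covariate. With the adult cuticle covariate it was also 0 for the double mutant against acs-20, for the average effect and for the double mutant against wild-type. The last comparison had 3 with the compared samples alone and 11 with the germline covariate. Calls among all tested genes in these 2 fits were 2051 and 3156, beside 2526 in the main fit. Over the 12 fits without a library the counts were 0 to 2 for eat-2 against wild-type, 4 to 13 for the double mutant against acs-20, 9 to 17 for the average effect and 0 to 7 for the double mutant against wild-type.

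The causes of these shifts were not tested, except that leaving out samples also lowers the degrees of freedom. The interaction, acs-20 against wild-type and the double mutant against eat-2 had 0 under each alternative run. Of 664 values of the 34 called gene effects, 512 stayed past the threshold, 152 did not and 0 changed sign. Same-numbered libraries correlated at -0.09 to 0.43, with 9 of 18 correlations over 0.1. Since not every pair exceeded that level and no label ties the numbers together, the block stayed an alternative, although 8 of 12 libraries correlated best with their own number, a hint from the data of something shared. With the replicate block the counts were 1, 13, 16 and 6, and 0 elsewhere. Scaling to the pan-neuronal list moved the median of all genes from 0.02 to -0.10 in the double mutant against acs-20 and from 0.01 to 0.12 in acs-20 against wild-type. Counts of 8 to 48 reads limit flp-32, and of 13 to 63 flp-17.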

Other observations

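Genes of other neuron classes were measured beside the flp genes. Of 4 GABA neuron genes 3 were tested, and none was called in any comparison. The vesicular glutamate transporter gene eat-4, which marks glutamate neurons, was at 15.1, 27.4 and 10.4 CPM in wild-type, 17.98, 11.9 and 14.3 CPM in eat-2, 4.33, 7.62 and 4.77 CPM in acs-20, and 8.81, 10.3 and 7.93 CPM in the double mutant. It fell in acs-20 against wild-type by 1.66 on the log2 scale (SE 0.33, edgeR adjusted p = 0.0208). In the touch neuron gene mec-17, a tubulin acetyltransferase gene, the same comparison gave -0.66 (SE 0.16, adjusted p = 0.0440), from 63.2 ± 6.86 to 39.8 ± 3.96 CPM (SD, n = 3). It was the only gene called of 7 touch neuron genes, or 14.3% against 2.21% of all tested genes. Estimates on that list were negative in 5 genes and positive in 2.

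Of 8 monoamine genes 7 were tested, and their average effects of eat-2 went both ways. The called share was 28.6%, beside 20.3% of all tested genes. The serotonin transporter gene mod-5 rose (0.84, SE 0.27, adjusted p = 0.0413) and bas-1, the decarboxylase of dopamine and serotonin synthesis, fell (-0.41, SE 0.10, adjusted p = 0.0117). Neither gene was called for the interaction.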
